A study of Mus musculus with 6 samples.

Results

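The numbered Zfp genes are mouse genes named Zfp plus a number, most of which encode proteins with C2H2 zinc fingers. The members described here were chosen by 3 criteria applied to the deposited gene table: a protein-coding biotype, a name made of Zfp and digits only, and a mean of at least 1 FPKM (fragments per kilobase of transcript, scaled to the size of the library) over the 6 libraries. Zfp36, whose product is a CCCH mRNA-decay protein, was left out by the same rule. Of 364 numbered protein-coding Zfp genes in a table of 54532 genes, 157 met the rule and 207 lay under the threshold, 12 of them with 0 fragments in every library. Because the mean FPKM selected on expression, the levels given below are a description of the members and carry no test. The samples were bulk RNA libraries of peritoneal macrophages from wild-type C57BL/6J male mice 6 to 8 weeks old, collected 5 days after 3% thioglycolate. Control macrophages were untreated. Model macrophages received lipopolysaccharide (LPS) at 500 ng/mL for 5.5 h and then ATP at 2 mM for 0.5 h, a sequence used to activate the NLRP3 inflammasome. MUS macrophages were treated as Model and in addition had muscone, a musk ketone, at 50 µM from 0.5 h before ATP. Each of the 3 groups had 2 libraries, and the batch number, 1 or 2, is the same as the replicate number.

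C2H2 zinc fingers are small folds held by a zinc ion that let a protein read DNA, and arrays of them give each protein its own target sequence. Many family members also carry a KRAB domain, which recruits the co-repressor TRIM28 and through it the histone methyltransferase SETDB1, heterochromatin proteins and deacetylases. Such KRAB zinc finger proteins are known for silencing retroelements and protecting imprints, whereas members without the domain include general transcription factors, RNA-binding proteins and ubiquitin ligases.

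The labels do not say whether the libraries of a group came from separate mice, so p-values measure the spread between these libraries only. The libraries held between 15526321 and 17135442 fragments assigned to genes, recovered from the FPKM values as whole numbers. The members together took 64949 and 69322 fragments in the Control libraries, then 37710 and 51190 in those of Model, and 51265 and 51964 for MUS. Model replicate 1 therefore had the fewest member fragments, and it also stood apart in breadth, with fragments on 24906 genes against 17406 to 19200 in the other 5 libraries. It gave the lowest FPKM of the 6 libraries for 65 of the 157 members (41.4%), against 20.5% of all genes tested. The summed FPKM of the 4 cytokine genes checked, Tnf, Il1b, Il6 and Il10, was 9.39 in Control replicate 1 and 218 in Control replicate 2. Of these, Il1b, the gene of interleukin-1β, was listed at 0.550 and 34.2 FPKM in them, and at 4750 to 7646 in the Model and MUS libraries. Zfp36, which rose in Model vs. Control, went the other way, at 33.3 in Control replicate 1 and 17.1 in Control replicate 2. For some results that rest on Model replicate 1 or Control replicate 2, values without that library are given.

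The macrophage label was checked on marker genes. All 8 macrophage markers were tested, with the lysozyme gene Lyz2 at 7275 to 12007 FPKM and Adgre1, which encodes F4/80, at 134 to 341. Of these 8 markers, Cd14 and Fcgr1 rose and Csf1r fell in Model vs. Control and in MUS vs. Control. Csf1r was at 208 and 272 FPKM in Control and at 83.4 to 105 in the other libraries, and Fcgr1 was at 18.3 and 7.87 in Control and at 134 to 161 in the others. All 5 T and NK cell markers, all 4 B cell markers and all 4 mast cell markers had a mean under 1 FPKM. Of the neutrophil markers, S100a9, Ly6g and Retnlg were listed at 0 in every library, while S100a8, which activated macrophages also express, was at 13.5 and 30.6 FPKM in Control, at 110.0 and 56.5 in Model, and at 64.0 and 50.3 in MUS. The eosinophil genes Prg2 and Epx were at 0 and Siglecf was at 1.23 to 4.06 FPKM. Of 4 mesothelial and stromal markers, Col1a1 had the highest mean and was at 4.56 to 14.0 FPKM, while Upk3b and Msln stayed under 1 FPKM in every library. These marker levels differed between libraries, and their part in the members' values was not tested. In bulk libraries, fewer cells of a type and less RNA per cell cannot be told apart.

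Most members were expressed at a low level. Their median mean was 2.24 FPKM, against 5.67 over all 9794 genes with a mean of at least 1 FPKM. Only 34 of the 157 members (21.7%) reached a mean of 5 FPKM, compared with 53.7% of all genes tested, and 12 reached 10 FPKM. The 10 members with the highest mean were Zfp800, Zfp207, Zfp706, Zfp281, Zfp991, Zfp655, Zfp131, Zfp263, Zfp984 and Zfp869. Together these 10 genes made up 19.1% and 23.0% of the members' summed FPKM in the Control libraries, then 33.4% and 28.4% for Model, and 32.2% and 28.2% for MUS. The 10 were picked by a mean to which the 4 treated libraries contribute most, so the lower share in Control partly restates the choice. Zfp800 led the list with means of 11.6 ± 8.19 FPKM (SD, n = 2) in Control, 43.7 ± 2.43 in Model and 45.1 ± 9.58 in MUS.

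Zfp207, which encodes a spindle-assembly and splicing protein, was at 13.9 and 12.5 FPKM in Control, at 20.1 and 17.2 in Model, and at 19.9 and 18 in MUS. Zfp706, a small protein with 1 finger, was at 18.1 and 17.8 in Control, at 17.5 and 12.8 in Model, and at 16.2 and 11.5 in MUS. Zfp655, a KRAB member, was at 15.9 and 15.5 in Control, at 10.4 and 12 in Model, and at 16.9 and 15.1 in MUS. The Control libraries were the lowest for Zfp207 and the highest for Zfp706, and for Zfp655 only the Model libraries stood lower than the other 4. Zfp263 was at 6.87 and 8.62 FPKM in Control, at 11.3 and 19.4 in Model, and at 13.5 and 15.7 in MUS, with both Control libraries below the rest.

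At the lower edge of the rule, Zfp799 had a mean of 1.03 FPKM with libraries between 0.744 and 1.19, Zfp560 a mean of 1.03 with libraries between 0.749 and 1.32, and Zfp790 a mean of 1.05 with libraries between 0.562 and 1.35. Just outside lay Zfp672 at 0.976, Zfp64 at 0.945 and Zfp950 at 0.934. Zfp64 was at 1.58 and 1.41 FPKM in Control and between 0.479 and 0.838 in the other 4 libraries. Members near the threshold thus had single libraries on either side of 1 FPKM. Of the 157 members, 107 were at or above 1 FPKM in every library, and 126 had a mean of at least 1 FPKM in every group. The other 31 passed the rule through the groups in which they were higher. The ratio between the highest and the lowest library was under 2 for 74 members and over 4 for 22.

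The proteins of the members were read from their coding sequences by letters only. With a finger counted as C, 2 to 4 residues, C, 12 residues, H, 3 to 5 residues and H, 153 of the 157 members held at least 1 finger. The median was 9 fingers and the highest number was 36, in Zfp142. Zfp236 had 30, Zfp646 had 27 and Zfp62 had 25. Zfp703 and Zfp503, a related pair of developmental repressors, had 0 by this count, as had Zfp330 and Zfp839. A match to the KRAB A box was found in 79 members (50.3%), against 137 of the 207 numbered Zfp genes under the threshold (66.2%) and 129 of the 9794 genes tested (1.32%). Among all genes searched, 406 had such a match and 313 of these held a finger, as did all 79 members with a match. Members with a KRAB match had a median of 11 fingers and those without had 6. A SCAN core, the dimerization domain of a smaller family, was found in 7 members, namely Zfp263, Zfp445, Zfp110, Zfp24, Zfp397, Zfp202 and Zfp369.

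The members lay unevenly over the genome. Chromosome 7 held 28 members (17.8% of members against 6.85% of genes tested) and chromosome 17 held 24 (15.3% against 4.99%). Counting members with at most 500000 bases between neighbours as a cluster, 41 members lay in 6 clusters of at least 4, and 80 members had no other member that near. The largest cluster, on chromosome 17 from 21008903 to 22867134, held 14 members, all with a KRAB match, among them Zfp51, Zfp52 and Zfp53. A second stretch of chromosome 17, a cluster of 7 with Zfp871 and Zfp811, had a KRAB match in 6. On chromosome 13 a cluster of 6 with Zfp429, Zfp87 and Zfp65 had a KRAB match in every member. These positions are those of the gene table and are on the mouse build GRCm38 by their match to GENCODE M21.

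Member transcripts were poor in G and C. Their median GC content was 43.6%, against 48.9% for all genes tested, and 83 of the 157 were at or below the lower quartile of 44.3%. KRAB members were poorer still, with a median of 40.4% against 48.7% for members without a match. The 26 members above the upper quartile of 53.7% included Zfp771, the richest at 68.7%. The libraries differed by GC content. In the genes at or below the lower quartile the median deviation from the gene mean was -0.29 log2 units in Control replicate 1 and 0.24 in MUS replicate 1. In those above the upper quartile it was 0.27 and -0.35. Control replicate 2 (-0.10 and 0.14) and MUS replicate 2 (0.07 and -0.11) went the same ways, less far. The Model libraries lay from 0.017 to 0.063 in these 2 sets. The trend thus went with the groups, so GC correction may also remove effects of treatment, and the 2 cannot be told apart. For called or singled-out members rich in G and C, values after GC correction are therefore given. For 13 members, more than 20% of 50-base stretches also occurred in another gene, so reads could have been divided between copies and their values are uncertain. These were Zfp991, Zfp984, Zfp992, Zfp993, Zfp617, Zfp971, Zfp429, Zfp825, Zfp931, Zfp414, Zfp932, Zfp59 and Zfp747.

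Model vs. Control asked what LPS followed by ATP changed in these macrophages. In all, 6 of the 157 members rose, namely Zfp800, Zfp281, Zfp658, Zfp719, Zfp558 and Zfp811, and 5 fell, namely Zfp704, Zfp362, Zfp652, Zfp358 and Zfp971. The tests were limma fits on log2(FPKM + 1) over all 9794 genes with Benjamini-Hochberg adjustment, so the fold changes understate those of genes with low FPKM. The 6 higher members were 3.82% of the 157, beside 10.3% of all genes tested, and the 5 lower members were 3.18%, beside 6.94%. With a further limit, a log2 fold change beyond 1 either way, 10 members passed (6.37%), beside 15.1% of all genes.

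Zfp281, a factor that binds GC-rich promoter elements and is known from pluripotent cells, was at 5.45 and 5.18 FPKM in Control, at 21.1 and 21.1 in Model, and at 20.8 and 16.7 in MUS. Both Control libraries lay below all 4 others, and the replicates of each group were near each other. Zfp281 (ENSMUSG00000041483, chromosome 1) rose in Model by a log2 fold change of 1.81 ± 0.23 (SE, n = 2 per group, adjusted p = 0.0046), with 1.78 within batch 1 and 1.84 within batch 2. Its call held under all 20 alternatives, with adjusted p from 0.00179 to 0.0342.

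Zfp800, the member with the highest mean, was at 5.84 and 17.4 FPKM in Control, at 45.4 and 42 in Model, and at 51.8 and 38.3 in MUS. The Control libraries lay below the other 4 but were far apart, with Control replicate 2 the higher, as it was for Il1b. The log2 fold change in Model was 1.99 ± 0.46 (adjusted p = 0.0298), and it was 2.76 within batch 1 and 1.22 within batch 2. The call held under 12 of 20 alternatives (adjusted p from 0.00278 to 0.156), and it was lost on leaving out any library other than Control replicate 2, with adjusted p then from 0.0641 to 0.121. In such fits the lone library of a group was assumed to vary like the other groups.

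The other 4 members that rose all had a KRAB match and were low in Control. Zfp658, whose human counterpart ZNF658 represses genes in response to zinc, was at 0.638 and 1.14 FPKM in Control, at 4.40 and 8.66 in Model, and at 7.23 and 9.0 in MUS. Zfp719 was at 1.11 and 2.88 in Control, at 6.46 and 8.75 in Model, and at 8.56 and 8.63 in MUS. Both were lowest in the Control libraries with no overlap, and Control replicate 2 was above Control replicate 1. The log2 fold change of Zfp658 was 1.95 ± 0.32 (adjusted p = 0.0097, from 0.00319 to 0.0847 over 20 alternatives), and without Control replicate 1 its adjusted p was 0.0543. That of Zfp719 was 1.58 ± 0.32 (adjusted p = 0.0192, from 0.00561 to 0.121), and its call was lost on leaving out any library but Control replicate 2, with adjusted p from 0.0523 to 0.0755. These genes are neighbours on the plus strand of chromosome 7, with Zfp658 ending 4149 bases before Zfp719 begins.

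Zfp558 was at 0.445 and 0.866 FPKM in Control, at 2.55 and 4.36 in Model, and at 4.42 and 4.34 in MUS. Zfp811 was at 0.0253 FPKM in Control replicate 1, which was 2 fragments, and at 0.354 in Control replicate 2, against 1.39 and 1.89 in Model and at 1.76 and 1.80 in MUS. For both genes the Control libraries were under 1 FPKM and all others above it, so both entered the 157 through the treated groups, as did Zfp658 with a Control mean of 0.888 FPKM. The log2 fold change was 1.41 ± 0.27 for Zfp558 (adjusted p = 0.0156) and 1.16 ± 0.25 for Zfp811 (adjusted p = 0.0238). Zfp558 lost its call without Control replicate 1 (adjusted p = 0.0855), and Zfp811 lost it on leaving out any library but Control replicate 2, with adjusted p from 0.0510 to 0.0921. Within batches 1 and 2 the log2 fold change was 1.30 and 1.52 for Zfp558 and 1.22 and 1.09 for Zfp811.

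**Figure D1:**
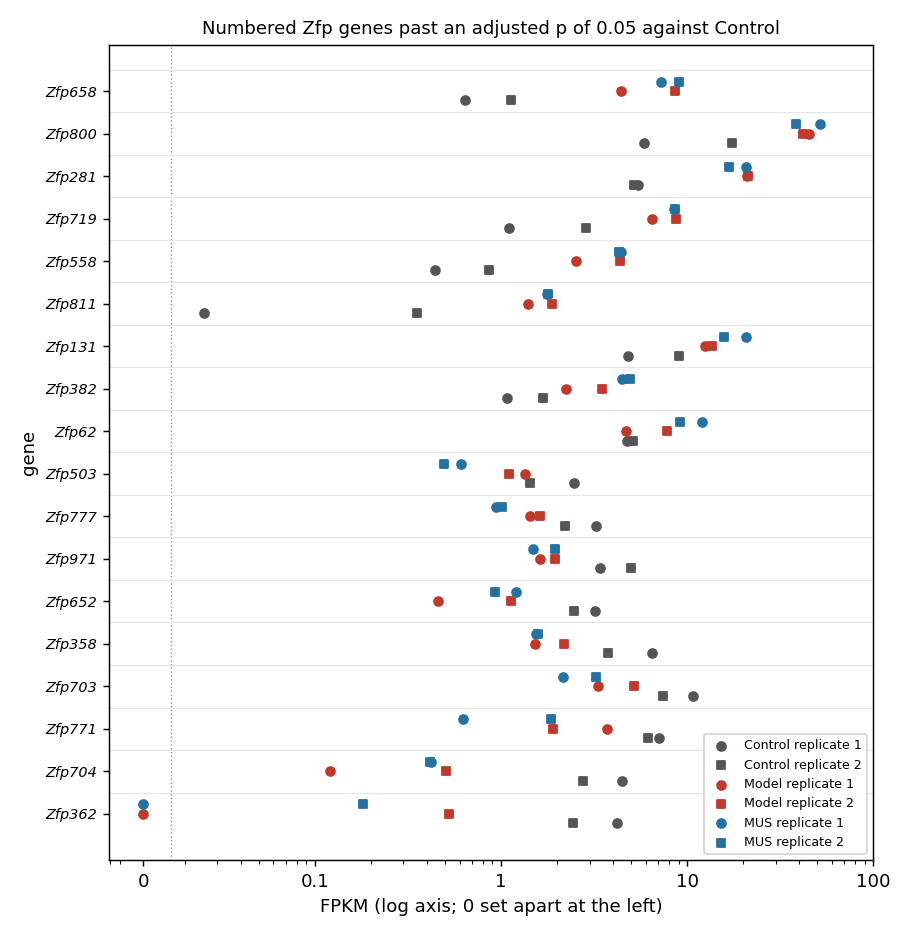
FPKM in each of the 6 libraries, on a log axis with values of 0 set apart, for the 18 members that passed an adjusted p of 0.05 against Control in Model or in MUS. Both Control libraries of Zfp281, at 5.45 and 5.18 FPKM, lie below its 4 treated libraries, and both of Zfp704, at 4.48 and 2.76 FPKM, lie above them.

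Of the members that fell, Zfp704 was at 4.48 and 2.76 FPKM in Control, at 0.121 and 0.508 in Model, and at 0.421 and 0.416 in MUS. Zfp362 was at 4.18 and 2.45 in Control, at 0 and 0.529 in Model, and at 0 and 0.182 in MUS. Both genes were above 2 FPKM in each Control library and under 1 FPKM in each of the other 4. Both met the expression threshold only through Control, so a difference between groups was built into their choice. Zfp704 fell by 1.80 on the log2 scale (SE 0.28, adjusted p = 0.0086), and its call was lost only in the fit without a filter on low values among 19 alternatives (adjusted p from 0.00366 to 0.0730). Zfp362 fell by 1.77 (SE 0.32, adjusted p = 0.0136), and without Model replicate 1, in which it was listed at 0, its adjusted p was 0.0590, in a range of 0.00934 to 0.0968 over 19 alternatives.

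Zfp652, a partner of the co-repressor CBFA2T3, was at 3.21 and 2.47 FPKM in Control, at 0.459 and 1.13 in Model, and at 1.21 and 0.933 in MUS. Zfp358 was at 6.47 and 3.77 in Control, at 1.53 and 2.18 in Model, and at 1.54 and 1.58 in MUS. Zfp971 was at 3.41 and 4.99 in Control, at 1.62 and 1.96 in Model, and at 1.48 and 1.95 in MUS. All 3 were higher in both Control libraries than in any treated library, and Zfp652 had a Model mean of 0.796 FPKM. Zfp652 fell by 1.11 (SE 0.27, adjusted p = 0.0321), Zfp358 fell by 1.07 (SE 0.27, adjusted p = 0.0376) and Zfp971 fell by 0.88 (SE 0.24, adjusted p = 0.0468). Zfp652 lost its call without Control replicate 1, Model replicate 1 or either MUS library (adjusted p from 0.0775 to 0.139), Zfp358 without any library but Control replicate 2 (0.0602 to 0.184), and Zfp971 without any of the 6 (0.0688 to 0.146). The transcript of Zfp358 has a GC content of 57.0%, and after GC correction its log2 fold change was -0.72 (adjusted p = 0.0900, in a range of 0.0157 to 0.184 over 19 alternatives). Zfp971 shares 51.1% of its 50-base stretches with other genes, which leaves its values uncertain.

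Over the 157 members the median log2 fold change of Model vs. Control was -0.12, with -0.17 within batch 1 and -0.03 within batch 2, beside 0.04 for all genes tested, which had 0.04 and 0.01. There were 59 members with a higher and 98 with a lower value in Model. An absolute log2 fold change above 1 was seen in 13 members (8.28%), beside 20.8% of all genes. Members with and without a KRAB match had medians of -0.13 and -0.12, and 5 of 79 (6.33%) and 6 of 78 (7.69%) passed an adjusted p of 0.05, beside 17.3% of all genes tested. After GC correction these medians were -0.20 and 0.00, beside 0.15 for all genes. Over the 126 members with a mean of at least 1 FPKM in every group the median was -0.09. Of these, 6 (4.76%) had an absolute log2 fold change above 1, beside 20.8% of all genes tested, whatever their group means. Of these 126, 3 rose (2.38%) and 2 fell (1.59%), beside 9.46% and 5.66% of the 8374 genes with such means. The other 3 higher and 3 lower members, Zfp558, Zfp658, Zfp811, Zfp362, Zfp652 and Zfp704, had a group mean under 1 FPKM and thus had to differ between groups to be included. They were 9.68% each of 31 such members, beside 15.4% higher and 14.5% lower of 1420 such genes. Without Model replicate 1 the members' median was -0.02, with -0.07 for KRAB members and 0.02 for the others, and 4 members passed the test, 3 higher and 1 lower, beside 7.07% of all genes. Without Model replicate 2 the median was -0.21 and 9 passed, beside 12.7% of all genes. Without Control replicate 1 it was -0.13 and 3 passed, beside 7.79%, and without Control replicate 2 it was -0.12 and 12 passed, beside 21.4%. Without MUS replicate 1 or MUS replicate 2, 5 passed each time, beside 8.17% and 8.14%.

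The split between higher and lower members depended on the scaling of the libraries. The deposited FPKM of the Control libraries were scaled to 1.45 and 1.34 times the fragments recovered on genes, and those of the other 4 libraries to 0.909 to 0.998 times. Scaled to the recovered fragments, the median of all genes moved from 0.04 to -0.40 in Model vs. Control and that of the members from -0.12 to -0.49, so both are best read relative to all genes. By that scaling 6 members passed as higher, beside 7.2% of all genes tested, and 28 as lower, beside 21.3%, in place of 6 and 5. By voom on the recovered fragments 6 members passed as higher, beside 7.32% of all genes, and 37 as lower, beside 22.9%. In both directions together, 21.7% of members and 28.5% of all genes passed by the first, and 27.4% and 30.2% by voom. All 11 members called on the deposited scale passed in the same direction by both. After quantile normalization, 5 members passed as higher and 4 as lower, in all 5.73% beside 16.5% of all genes. The medians were then -0.07 for members and -0.06 for all genes, so the members were nearly level with all genes. The members' share of all fragments was 0.413% and 0.405% for Control, 0.243% and 0.330% for Model, and 0.316% and 0.315% for MUS. Mitochondrial genes held 1.51% and 1.39% of fragments in Control and 0.206% to 0.497% in the other libraries. Rescaled without mitochondrial and the 20 highest genes, the medians in Model vs. Control were -0.49 for members and -0.39 for all genes. The part of mitochondrial genes alone was not tested.

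RefSeq gave 159 promoters of 130 of the 157 members, each 300 bases from 250 before to 50 after the transcript start on build GRCm38.p6. Their median number of CpG sites was 17, beside 21 in promoters of all genes tested and 7 in all promoters. The letters CCGGAA, the core bound by ETS factors, were found on either strand in 40.3% of member promoters, 30.1% of those of genes tested and 14.9% of all. The letters GGG and TTTCC with any 2 bases between, a form of the NF-kB site, were found on either strand in 3 member promoters (1.89%), those of Zfp84, Zfp617 and Zfp429, beside 1.75% and 1.63%. After the sequences had been seen, CGGAAGTG, which shares the letters CGGAA with the ETS core, was also searched on both strands and found in 26 of 159 member promoters (16.4%), 8.40% of those of genes tested and 3.44% of all. Counted by genes with a promoter sequence, it was found in 16.9% of members, 20.8% of KRAB members and 9.86% of genes tested. It lay in promoters of Zfp558, Zfp658 and Zfp719, 3 of the 9 members higher than Control in Model or MUS, and in 0 of the 6 lower members with a promoter sequence. The other 6, among them the KRAB members Zfp382 and Zfp811, had no match in their windows, and CCGGAA was absent from the windows of Zfp658 and Zfp719. A match is a description of letters and not a binding site. The promoters of these 3 KRAB members are shown because they hold this match, for which they were chosen after the sequences had been seen, with CGGAAGTG in capitals: Zfp558 at chr9:18473596-18473895 on the minus strand with 2 matches and 22 CpG sites, Zfp658 at chr7:43562120-43562419 on the plus strand with 1 match and 19 CpG sites, and Zfp719 at chr7:43579336-43579635 on the plus strand with 1 match and 11 CpG sites.
Zfp558: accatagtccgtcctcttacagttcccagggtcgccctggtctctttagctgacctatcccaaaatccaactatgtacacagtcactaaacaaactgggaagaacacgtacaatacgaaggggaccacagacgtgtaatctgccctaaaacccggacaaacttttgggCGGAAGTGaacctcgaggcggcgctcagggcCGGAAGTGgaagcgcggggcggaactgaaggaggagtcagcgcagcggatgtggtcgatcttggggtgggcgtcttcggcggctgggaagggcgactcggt
Zfp658: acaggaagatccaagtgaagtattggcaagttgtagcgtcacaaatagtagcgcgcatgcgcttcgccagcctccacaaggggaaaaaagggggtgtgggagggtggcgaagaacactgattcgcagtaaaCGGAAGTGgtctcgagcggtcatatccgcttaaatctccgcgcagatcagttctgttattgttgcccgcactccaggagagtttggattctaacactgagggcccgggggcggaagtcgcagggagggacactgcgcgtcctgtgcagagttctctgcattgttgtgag
Zfp719: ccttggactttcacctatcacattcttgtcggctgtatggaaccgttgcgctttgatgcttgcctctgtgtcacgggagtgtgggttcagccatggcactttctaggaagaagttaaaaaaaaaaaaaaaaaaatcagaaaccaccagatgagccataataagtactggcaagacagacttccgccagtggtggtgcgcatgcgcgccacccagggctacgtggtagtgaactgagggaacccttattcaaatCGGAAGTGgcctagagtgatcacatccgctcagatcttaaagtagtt

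MUS vs. Model asked what muscone changed in macrophages given LPS and ATP. No member passed an adjusted p of 0.05 by limma (0 of 157, beside 0% of all genes tested). By voom on the recovered fragments 0 members passed, beside 0% of all genes. At an unadjusted p under 0.05 there were 5 higher members (3.18%, beside 2.61% of all genes) and 1 lower (0.637%, beside 5.81%), and voom gave 5 members (3.18%, beside 7.03%). In both directions together this count was 21 without Model replicate 2 (13.4%, beside 18.3% of all genes) and 1 without MUS replicate 1 (0.637%, beside 2.34%). No member had an absolute log2 fold change above 1, against 4.32% of all genes. Zfp35 had the highest fold change among members whose Model and MUS libraries did not overlap. It was at 2.79 and 2.44 FPKM in Control, at 1.40 and 2.14 in Model, and at 4.11 and 3.93 in MUS. Both MUS libraries lay above the other 4, and the log2 fold change was 0.87 ± 0.22 (adjusted p = 0.382), with 1.09 and 0.65 within batches 1 and 2.

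Zfp869, a KRAB member, was at 8.11 and 9.35 FPKM in Control, at 6.37 and 10.4 in Model, and at 16.2 and 13.2 in MUS, with MUS above the other groups (log2 fold change 0.77, adjusted p = 0.513). Zfp62 was at 4.78 and 5.13 in Control, at 4.68 and 7.81 in Model, and at 12 and 9.13 in MUS, again with MUS highest (0.70, adjusted p = 0.554). Zfp146, known as OZF, was at 4.44 and 4.58 in Control, at 0.932 and 2.53 in Model, and at 2.83 and 3.92 in MUS (0.73, adjusted p = 0.601). For Zfp146 the Model libraries were lowest and the MUS libraries lay between them and Control. Without Model replicate 1 the log2 fold change in MUS vs. Model was 0.68 for Zfp35, 0.45 for Zfp869, 0.38 for Zfp62 and 0.30 for Zfp146.

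At the other end, Zfp771 was at 7.05 and 6.14 FPKM in Control, at 3.70 and 1.90 in Model, and at 0.626 and 1.87 in MUS (log2 fold change -0.77, adjusted p = 0.624). Its lower Model library and its higher MUS library nearly met, and after GC correction the direction flipped to 0.02. Zfp513 was at 4.36 and 3.57 in Control, at 5.24 and 5.19 in Model, and at 2.67 and 3.56 in MUS (-0.60, adjusted p = 0.503). Zfp217, an oncogene product that works with co-repressors, was at 2.76 and 3.06 in Control, at 2.05 and 4.04 in Model, and at 1.17 and 1.89 in MUS (-0.65, adjusted p = 0.629). Zfp219 was at 5.39 and 2.87 in Control, at 2.27 and 3.43 in Model, and at 0.996 and 2.11 in MUS (-0.61, adjusted p = 0.700). In Zfp217, Zfp219 and Zfp513 the MUS libraries were below all others. After GC correction the log2 fold change was -0.62 for Zfp217, -0.11 for Zfp219 and -0.15 for Zfp513. Without Model replicate 1 it was -0.42 for Zfp771, -1.01 for Zfp217, -0.83 for Zfp219 and -0.60 for Zfp513. Against Control, Zfp513 turned from -0.27 to 0.68 in MUS after GC correction (adjusted p = 0.0354, in a range of 0.0235 to 0.854 over 19 alternatives) and went from 0.33 to 0.83 in Model (adjusted p = 0.0227, in a range of 0.0166 to 0.755), and it was chosen for these comparisons after its values were seen.

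The members' median log2 fold change in MUS vs. Model was 0.12, beside 0.01 for all genes tested, with 109 members higher and 48 lower in MUS. It was 0.24 within batch 1, which holds Model replicate 1, and 0.02 within batch 2. Without Model replicate 1 it was 0.02, and without Model replicate 2 it was 0.24. Members with a KRAB match had a median of 0.17, with 65 of 79 above 0, beside 5021 of the 9794 genes tested. Members without a match had a median of 0.03, with 44 of 78 above 0. Without Model replicate 1 these medians were 0.09 and -0.04. After GC correction the medians were 0.06 and 0.04, and after correction for GC and gene length they were 0.08 and -0.02. MUS vs. Model shares the Model libraries with Model vs. Control, and their values are given side by side only.

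**Figure D2:**
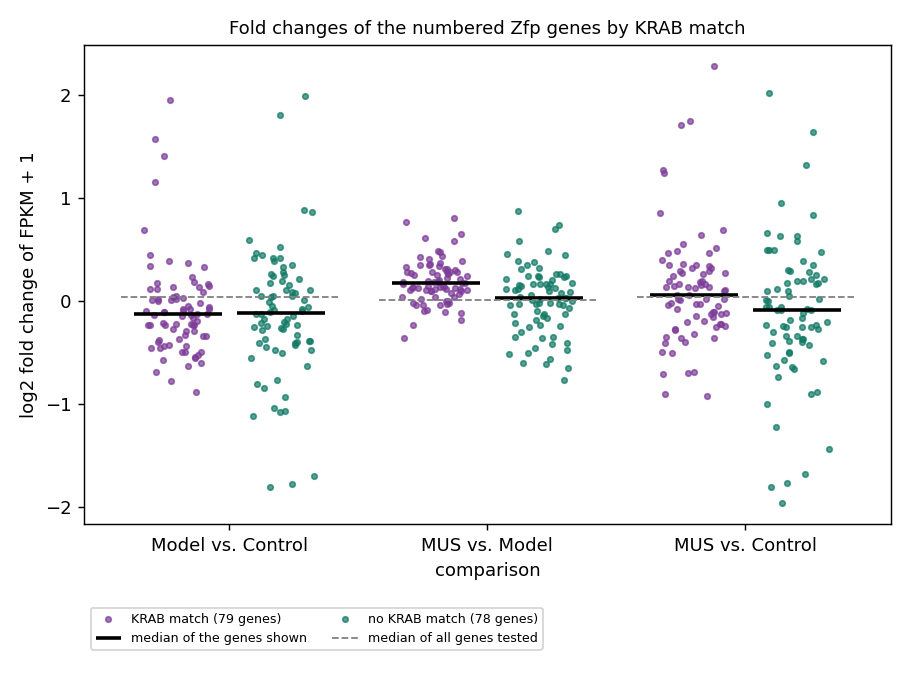
Log2 fold change of each of the 157 members in the 3 comparisons, with members with and without a KRAB match drawn apart, black lines at their medians and a dashed line at the median of all genes tested. In MUS vs. Model the KRAB members have a median of 0.17 and the others 0.03, which were 0.06 and 0.04 after GC correction and 0.08 and -0.02 after correction for GC and gene length.

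MUS vs. Control asked how macrophages given LPS, ATP and muscone differed from untreated ones, and it shares the Control libraries with Model vs. Control. In it, 9 members rose (5.73%, beside 13% of all genes tested) and 8 fell (5.10%, beside 11.4%), and 13 passed both thresholds (8.28%, beside 20.2%). The 6 members that rose in Model vs. Control also passed here, with log2 fold changes of 2.28 for Zfp658, 2.02 for Zfp800, 1.75 for Zfp719, 1.71 for Zfp558, 1.64 for Zfp281 and 1.24 for Zfp811. The other 3 were Zfp131, Zfp382 and Zfp62.

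Zfp131, a BTB zinc finger protein, was at 4.82 and 9.03 FPKM in Control, at 12.5 and 13.6 in Model, and at 20.7 and 15.8 in MUS. Zfp382, a KRAB member, was at 1.08 and 1.69 in Control, at 2.25 and 3.51 in Model, and at 4.49 and 4.96 in MUS. In both, Control was lowest, Model between and MUS highest, with no overlap between groups. The log2 fold change was 1.32 ± 0.32 for Zfp131 (adjusted p = 0.0255) and 1.27 ± 0.25 for Zfp382 (adjusted p = 0.0137). Zfp131 lost its call when scaled to the recovered fragments (0.84, adjusted p = 0.0673, in a range of 0.00955 to 0.197 over 20 alternatives) and by voom (0.92, adjusted p = 0.0577). Both lost it without Control replicate 1 or either MUS library, with adjusted p from 0.0858 to 0.197 for Zfp131 and from 0.0772 to 0.10 for Zfp382. Zfp62, chosen after its values were seen, rose by 0.95 ± 0.28 (adjusted p = 0.0471), and with the batch as a block its adjusted p was 0.0513, in a range of 0.0304 to 0.289 over 20 alternatives. It passed in 5 of the 20, and its log2 fold change was 0.48 on the recovered-fragment scale (adjusted p = 0.230), 0.54 by voom (0.226) and 0.73 after GC correction (0.0882). It also lost its call without either Control or either MUS library (0.0947 to 0.289).

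Of the 8 members that fell in MUS vs. Control, Zfp362, Zfp704, Zfp358 and Zfp971 also fell in Model vs. Control, and the log2 fold changes here were -1.96, -1.68, -1.22 and -0.93. Zfp703, a developmental repressor, was at 10.7 and 7.41 FPKM in Control, at 3.34 and 5.21 in Model, and at 2.17 and 3.25 in MUS. It fell by 1.44 (SE 0.29, adjusted p = 0.0149), with MUS below Model and Model below Control in every library. Its relative Zfp503 was at 2.47 and 1.44 in Control, at 1.34 and 1.10 in Model, and at 0.612 and 0.497 in MUS, and fell by 0.91 (SE 0.26, adjusted p = 0.0427). Zfp777 was at 3.25 and 2.22 in Control, at 1.44 and 1.62 in Model, and at 0.940 and 1.01 in MUS, and fell by 0.90 (SE 0.23, adjusted p = 0.0311). Zfp771 fell by 1.81 (SE 0.35, adjusted p = 0.0125).

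Of the 9 members that fell in either comparison with Control, these 4 and Zfp358 and Zfp362 have GC contents above the upper quartile. After GC correction the log2 fold change was -0.52 for Zfp703 (adjusted p = 0.169), -0.21 for Zfp771 (0.626), -0.11 for Zfp777 (0.736), -0.13 for Zfp503 (0.728) and -0.61 for Zfp358 (0.123). Zfp362 kept its call after GC correction, at -1.29 in MUS vs. Control (adjusted p = 0.0292, in a range of 0.00554 to 0.0831 over 19 alternatives) and at -1.40 in Model vs. Control (0.0257, 0.00934 to 0.0968). Over 19 or 20 alternatives the adjusted p of the other 5 ranged from 0.00538 to 0.177, 0.00556 to 0.645, 0.00930 to 0.750, 0.0104 to 0.767 and 0.00919 to 0.142 in the same order. Without Control replicate 1 or MUS replicate 1 these 5 lost their calls, and without MUS replicate 2 all but Zfp771 did, with adjusted p from 0.0555 to 0.197. Zfp652, which fell in Model, had a log2 fold change of -0.89 here (adjusted p = 0.0520). It passed on the recovered-fragment scale (-1.25, adjusted p = 0.0165), by voom (-1.94, 0.0105) and after GC correction (-0.96, 0.0478). With the batch as a block its adjusted p was 0.0618.

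The members' median in MUS vs. Control was -0.02, with 0.01 within batch 1 and -0.04 within batch 2, beside 0.04 for all genes tested. After quantile normalization the members' median was 0.01 and that of all genes was -0.06, so the members lay above all genes. Of the 126 members with a mean of at least 1 FPKM in every group, 6 rose (4.76%) and 4 fell (3.17%), beside 11.8% and 9.58% of all such genes. The other 3 higher and 4 lower members, Zfp558, Zfp658, Zfp811, Zfp362, Zfp503, Zfp704 and Zfp777, had a group mean under 1 FPKM (9.68% and 12.9% of 31, beside 20% and 22.3% of all such genes). Members with a KRAB match had a median of 0.06 and 7 of 79 passed the test (8.86%), and members without had -0.09 and 10 of 78 passed (12.8%), beside 24.4% of all genes tested. After GC correction these medians changed sign to -0.11 and 0.05. Scaled to the recovered fragments, 7 members passed as higher, beside 8.18% of all genes, and 29 as lower, beside 25.8%, with medians of -0.39 for members and for all genes. By voom 7 passed as higher, beside 8.18%, and 30 as lower, beside 26.8%. In both directions together, 22.9% of members and 33.9% of all genes passed by the first, and 23.6% and 35.0% by voom. Without MUS replicate 1 no member passed by limma (0 of 157, beside 1.88% of all genes), and 17 had an unadjusted p under 0.05 (10.8%, beside 21.8%). Without MUS replicate 2 there were 4, beside 7.34% of all genes, without Control replicate 1 there were 7, beside 11%, and without Control replicate 2 there were 17, beside 25.3%. Zfp658, Zfp281 and Zfp362 lost their calls on leaving out MUS replicate 1 alone (adjusted p = 0.0539, 0.0726 and 0.0831). Zfp800, Zfp719, Zfp558 and Zfp704 lost theirs without either MUS library (adjusted p from 0.0505 to 0.170), Zfp811 without Control replicate 1 or either MUS library (0.0602 to 0.122), and Zfp971 without any Control or MUS library (0.0505 to 0.230).

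Members were also grouped by known roles. Of 7 listed genes that guard imprints or silence retroelements, 4 passed the expression threshold and 0 of the 4 passed the limma test in either comparison with Control, with 1 at an unadjusted p under 0.05 in Model and 0 in MUS. Of all genes tested, 17.3% passed in Model vs. Control and 24.4% in MUS vs. Control. At an unadjusted p under 0.05 these shares of all genes were 33.6% and 39.7%. On the recovered-fragment scale and by voom, Zfp809 and Zfp932 passed as lower in Model vs. Control, beside 21.3% and 22.9% of all genes, and Zfp932 also in MUS vs. Control, beside 25.8% and 26.8%. Zfp445, an imprint guardian, was at 7.71 and 9.51 FPKM in Control, at 6.32 and 13.6 in Model, and at 13.6 and 12.5 in MUS. Zfp809, which silences retroviruses through their primer-binding site, was at 2.81 and 2.35 in Control, at 0.958 and 1.72 in Model, and at 1.77 and 1.96 in MUS. Zfp809 was above all treated libraries in Control, while for Zfp445 Model overlapped both other groups and MUS lay above Control. Zfp57 and Zfp819 lay under the threshold with means of 0.110 and 0.105 FPKM, and Zfp708 was listed at 0.

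Of 23 listed regulators of transcription and chromatin, 16 were tested, 1 passed as higher in Model vs. Control, beside 10.3% of all genes tested, and 2 as higher and 1 as lower in MUS vs. Control, beside 13% and 11.4%. Of 13 listed genes with roles in RNA, ribosomes or protein modification, 12 were tested, and the 1 that passed as higher in each comparison with Control was Zfp800, whose place in this list is uncertain, beside 10.3% and 13% of all genes. On the recovered-fragment scale and by voom, lower calls in Model vs. Control numbered 3 and 5 in the first list and 1 and 2 in the second, beside 21.3% and 22.9% of all genes. In MUS vs. Control they numbered 4 and 3, and 1 and 2, beside 25.8% and 26.8%. Zfp106 of the second list and Zfp91 of the first were among them in Model vs. Control by both, and Zfp91 in MUS vs. Control on the recovered-fragment scale only. Zfp598, a sensor of collided ribosomes, was at 6.44 and 8.05 FPKM in Control, at 10.4 and 10 in Model, and at 7.31 and 8.24 in MUS. Zfp91, a ubiquitin ligase, was at 11.9 and 11.7 in Control, at 7.71 and 9.68 in Model, and at 9.76 and 9.85 in MUS. For Zfp598 Model stood above both other groups, and for Zfp91 Control stood above both. Zfp106, an RNA-binding protein, was at 7.89 and 7.10 in Control, at 3.53 and 6.41 in Model, and at 7.2 and 7.04 in MUS.

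The KRAB co-repressor machinery was listed beside the members. Of 36 listed genes, 31 were tested, with 2 higher and 4 lower in each comparison with Control, beside 10.3% and 6.94% of all genes in Model vs. Control and 13% and 11.4% in MUS vs. Control. On the recovered-fragment scale and by voom, 14 and 15 were lower in Model vs. Control, beside 21.3% and 22.9% of all genes, and 10 and 11 in MUS vs. Control, beside 25.8% and 26.8%. Trim28 was at 25.2 and 23.6 FPKM in Control, at 23.7 and 23.5 in Model, and at 18.1 and 19.9 in MUS, and Setdb1 was at 5.14 and 3.32 in Control, at 1.89 and 3.09 in Model, and at 3.68 and 3.18 in MUS. Neither passed in Model vs. Control (adjusted p = 0.912 and 0.179), but by both of these scalings Setdb1 passed there as lower, and Trim28 in MUS vs. Control. Dnmt3a, a de novo DNA methyltransferase, was at 31.8 and 22.1 in Control, at 4.74 and 7.24 in Model, and at 6.25 and 7.69 in MUS, and fell by 2.00 (SE 0.29). Morc3, a heterochromatin ATPase, was at 13.5 and 18.4 in Control, at 48.1 and 47.8 in Model, and at 55.4 and 50.7 in MUS, and rose by 1.55 ± 0.27. In Model vs. Control, Hdac1 also rose and Dnmt1, Chd3 and Mbd3 also fell, but Hdac1 did not pass by either of the other scalings. Of the other zinc finger families listed, 27 of 40 Zbtb genes were tested, with 1 higher and 2 lower in Model vs. Control and 1 and 5 in MUS vs. Control. By the other scalings, 6 and 8 Zbtb genes were lower in Model vs. Control, and 9 and 9 in MUS vs. Control. No Zbtb gene was higher by either of them, beside 7.2% to 8.18% of all genes. Of 17 Klf genes 11 were tested, with 2 higher and 2 lower, and 2 and 3. By the other scalings 2 were higher each time. Lower Klf genes then numbered 3 and 3 in Model vs. Control and 4 and 5 in MUS vs. Control. The shares of all genes were those given for the machinery.

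Pairs of related members were chosen after their values were seen, and differences within a pair were not tested. Zfp148, the relative of Zfp281, was at 5.10 and 6.15 FPKM in Control, at 3.93 and 5.05 in Model, and at 5.37 and 4.48 in MUS. Its Model libraries lay just below Control and its MUS libraries overlapped both. By voom Zfp148 passed as lower in Model vs. Control (-0.88, adjusted p = 0.0449), beside 22.9% of all genes. Zfp395, the relative of Zfp704, was at 5.79 and 0.831 in Control, at 0 and 0.177 in Model, and at 0 and 0.0650 in MUS. Zfp395 met the expression threshold only through Control, mainly through Control replicate 1. A difference between groups was therefore built into its choice, and its p-values reflect that choice. Its Control libraries were the highest but lay far apart, and its log2 fold changes of -1.70 in Model and -1.77 in MUS were -0.76 (adjusted p = 0.142) and -0.83 (0.0873) without Control replicate 1, and -2.65 and -2.72 without Control replicate 2. Its adjusted p was 0.0800 in Model vs. Control, or 0.00191 without Control replicate 2, and 0.0583 in MUS vs. Control, or 0.00168 without Control replicate 2 and 0.0407 with the batch as a block. Its adjusted p ranged over 19 alternatives from 0.00191 to 0.303 and from 0.00168 to 0.251. Zfp384, the relative of Zfp362, was at 6.61 and 5.82 in Control, at 4.86 and 7.30 in Model, and at 4.32 and 5.47 in MUS. Zfp110 was at 6.81 and 7.26 in Control, at 7.18 and 7.37 in Model, and at 8.89 and 8.78 in MUS, and its paralog Zfp369 was at 1.94 and 1.63 in Control, at 1.37 and 1.04 in Model, and at 1.41 and 1.35 in MUS. MUS was highest for Zfp110 and Control was highest for Zfp369. By voom Zfp369 passed as lower in Model vs. Control (-1.12, adjusted p = 0.0303) and in MUS vs. Control (-0.90, 0.0492), beside 22.9% and 26.8% of all genes. Zfp146, also chosen after its values were seen, had an adjusted p of 0.0577 in Model vs. Control and of 0.0320 with the batch as a block, in a range of 0.0159 to 0.226 over 19 alternatives. Its log2 fold change of -1.08 was -0.64 without Model replicate 1 (adjusted p = 0.168).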

How the data were processed

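The authors deposited FPKM values per gene for the 6 libraries. The submitters' processing notes name HISAT2, featureCounts 1.5.0-p3 and GRCm39, the published methods name RSEM, and gene positions match GENCODE M21 on GRCm38 for 98.33% of 54495 shared identifiers. Members and lists were chosen with earlier results of these data known. Genes with a mean of at least 1 FPKM (9794) were fitted as log2(FPKM + 1) over the 3 groups in limma 3.58.1 (R 4.3.3; eBayes with a trend) with Benjamini-Hochberg adjustment. Fragments were recovered as FPKM times gene length, and 100% of values were whole within 0.1. Fitting was tested on simulated data. Python 3.11.15, NumPy 2.4.6, pandas 2.3.3 and Matplotlib 3.10.9 were used. Named members were the 10 with the highest mean, up to 8 highest and 8 lowest fold changes per comparison with Control among called members without overlap, the 4 highest and 4 lowest without overlap in MUS vs. Model, where none passed, and the 3 on each side of the threshold. Other genes came from the lists or were named after their values were seen. The KRAB pattern for the start of the A box was added after 15 members were seen to be missed by the pattern for its end. The batch, 1 or 2, equals the replicate number and was used to pair the libraries. Same-numbered libraries' deviations correlated across genes, which are not independent replicates, at 0.119 (Control and Model), -0.0928 (Control and MUS) and 0.136 (Model and MUS).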

Additional observations from a re-analysis of the deposited data

How the results depend on the processing

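In Model vs. Control, 11 members passed an adjusted p of 0.05, 10 of them with an absolute log2 fold change above 1, and the median was -0.12. Of the members 7.01% passed, beside 17.3% of all genes tested. These values were 4, 4 and 0.046 at a mean FPKM of at least 5, where 34 members were tested (11.8%, beside 22.7%). They were 34, 18 and -0.49 on the recovered-fragment scale (21.7%, beside 28.5%), 39, 20 and -0.49 when rescaled without mitochondrial and the 20 highest genes (24.8%, beside 28.7%), and 43, 39 and -0.73 by voom (27.4%, beside 30.2%). The counts were 1 and 1 with no filter (0.637%, beside 0.868%) and 4 and 4 with only the 2 groups compared (2.55%, beside 8.14%). Past both thresholds were 15.1% of all genes in the reported fit and 20.6% at a mean FPKM of at least 5. This share was 22.2% on the recovered-fragment scale, 22.1% when rescaled and 27.9% by voom. It was 0.861% with no filter and 8.14% with only the 2 groups compared. The median of all genes was 0.04 in the reported fit and 0.245 at a mean FPKM of at least 5, above the members' each time. With quantile normalization the members' median was -0.07, beside -0.06 for all genes. Leaving out 1 library gave medians of the members from -0.21 to -0.018.

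In MUS vs. Control the values were 17, 13 and -0.02, with 10.8% of members passing beside 24.4% of all genes. They became 7, 6 and 0.20 at a mean of at least 5 FPKM (20.6%, beside 29.1%), 36, 24 and -0.39 on the recovered-fragment scale (22.9%, beside 33.9%), 36, 24 and -0.40 when rescaled (22.9%, beside 34.4%), and 37, 34 and -0.56 by voom (23.6%, beside 35.0%). The counts were 1 and 1 with no filter (0.637%, beside 1.55%). Past both thresholds were 20.2% of all genes in the reported fit and 25.6% at a mean of at least 5 FPKM. This share was 27.1% on the recovered-fragment scale, 27.4% when rescaled, 32.1% by voom and 1.51% with no filter. The median of all genes was 0.04 in the reported fit and 0.255 at a mean of at least 5 FPKM, above the members' each time. With quantile normalization the members' median was 0.01, beside -0.06 for all genes. Leaving out 1 library gave medians of the members from -0.05 to -0.01. Where a group kept 1 library, that library was assumed to vary like the other groups.

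In MUS vs. Model, limma called 0 members in the reported fit and under every alternative, and voom also called 0. Of all genes, 0% passed in the reported fit and by voom. At most 0.0715% passed under alternatives that kept both libraries of Model and of MUS. Members at an unadjusted p under 0.05 numbered 6 in the reported fit (3.82%, beside 8.42% of all genes) and 5 by voom (3.18%, beside 7.03%). They numbered 2 at a mean of at least 5 FPKM (5.88%, beside 8.72%), 21 without Model replicate 2 (13.4%, beside 18.3%) and 1 without MUS replicate 1 (0.637%, beside 2.34%). The median of 0.12 became 0.21 by voom, 0.058 with GC correction, 0.058 with GC correction and replicate block, and 0.033 with GC and gene-length correction. It ranged from 0.023 to 0.24 on leaving out 1 library. Zfp771 reversed from -0.77 to 0.024 with GC correction, to 0.024 with the replicate block added and to 0.021 with gene length added. Zfp513 reversed in MUS vs. Control from -0.27 to 0.68 with GC correction, to 0.68 with the replicate block added and to 0.69 with gene length added, and in Model vs. Control from 0.33 to -0.12 on the recovered-fragment scale, -0.12 when rescaled and -0.14 by voom. The cause was not tested.

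With the replicate block, paired by the replicate number, 12 members passed in Model vs. Control (7.64%, beside 17.8% of all genes). Past both thresholds were 11, beside 16.2% of all genes, and the median was -0.12. In MUS vs. Control 17 passed (10.8%, beside 25.2%, median -0.02). In MUS vs. Model 0 passed, beside 0.0408% of all genes (median 0.12). The block added Zfp146 in Model vs. Control (-1.08, adjusted p = 0.0320) and Zfp395 in MUS vs. Control (-1.77, adjusted p = 0.0407). It removed Zfp62 in MUS vs. Control (0.95, adjusted p = 0.0513) and changed no other member's call. Among the alternatives for named members, 199 values in Model vs. Control kept their direction and side of the threshold, 58 lost the call, 10 gained it and 3 reversed, and in MUS vs. Control these were 273, 87, 5 and 3. With 2 libraries per group, members with few fragments, at a median of 125 to 264 per library, have imprecise values.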
